A study of Mus musculus with 18 samples.

Results

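Levels of 36 stellate cell and extracellular matrix genes were followed across 18 mouse liver libraries. The genes were the rows of the deposited raw count table whose symbol is on a list of collagens, cytoskeletal genes, stellate cell receptors and markers, proteoglycans and glycoproteins, crosslinking enzymes, metalloproteinases and their inhibitors, and growth factors. All 36 were found, out of 52636 gene IDs in the table, each with 1 row. Of them 35 had enough counts to be tested, and Tagln, which encodes the smooth muscle protein transgelin, did not.

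The study measured liver RNA, collected at ZT8, in 6 groups of 3 mice. The H-KO and H-WT livers came from mice labelled B6.129X1(FVB)-Hnf4atm1.1Gonz/J with Albtm1(cre/ERT2)Mtz, at 10 weeks of age. The BH-KO and BH-WT livers, also at 10 weeks, came from a line that carries the Arntl allele B6.129S4(Cg)-Arntltm1Weit/J beside the Hnf4a and Cre alleles. The BH-HF-KO and BH-HF-WT livers were taken from BH-line mice aged 45 weeks, which had eaten a high-fat diet for 35 weeks from the age of 10 weeks. All mice, WT included, received tamoxifen (10 mg/mL, in corn oil) on 5 days at 8 weeks of age. Hnf4a encodes a nuclear receptor that maintains hepatocyte gene expression, and Arntl (Bmal1) encodes an activator of the circadian clock. Cre is expressed from the albumin gene, which is active in hepatocytes and not in the cells that make most of the genes described here. The strain label does not differ between WT and KO mice of a line, so the genotype of the WT mice is not known here. Diet and age changed together in the HF groups, and there was no high-fat group of the H line.

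Hepatic stellate cells lie between the hepatocytes and the sinusoidal endothelium. In a healthy liver they store vitamin A, which lecithin retinol acyltransferase (Lrat) esterifies, and on liver injury they can turn into contractile, collagen-secreting myofibroblasts under the influence of TGF-beta and PDGF. Portal fibroblasts, vascular smooth muscle and mesothelium make many of the same matrix proteins, and hepatocytes secrete fibronectin into plasma. Metalloproteinases such as Mmp14, a membrane-bound collagenase, degrade the matrix, and the Timp proteins inhibit them.

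Promoters are shown for the metalloproteinase Mmp14 and its inhibitor Timp1, and for the stellate cell genes Lrat and Reln, because these 4 genes are among those that differed between KO and WT livers. RefSeq promoters on GRCm38.p6 were matched by symbol for 22 of the 36 genes, with 23 promoters in all. Each line gives the 250 bases before the transcription start on the gene's own strand, 5′ to 3′, with motif matches in capitals. The positions are chr14:54431348-54431597 (+ strand) for Mmp14, chrX:20869916-20870165 (+ strand) for Timp1, chr3:82903975-82904224 (− strand) for Lrat and chr5:22344706-22344955 (− strand) for Reln.
Mmp14: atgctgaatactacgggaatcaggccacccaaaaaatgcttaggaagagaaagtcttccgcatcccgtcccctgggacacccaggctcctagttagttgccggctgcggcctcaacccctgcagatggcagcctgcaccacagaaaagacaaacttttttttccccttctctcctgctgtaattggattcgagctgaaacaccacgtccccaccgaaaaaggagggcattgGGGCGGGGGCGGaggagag
Timp1: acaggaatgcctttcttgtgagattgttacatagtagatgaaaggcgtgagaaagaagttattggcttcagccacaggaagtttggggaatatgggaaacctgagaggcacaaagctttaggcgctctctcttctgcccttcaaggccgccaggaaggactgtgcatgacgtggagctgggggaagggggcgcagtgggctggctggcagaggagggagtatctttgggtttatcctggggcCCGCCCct
Lrat: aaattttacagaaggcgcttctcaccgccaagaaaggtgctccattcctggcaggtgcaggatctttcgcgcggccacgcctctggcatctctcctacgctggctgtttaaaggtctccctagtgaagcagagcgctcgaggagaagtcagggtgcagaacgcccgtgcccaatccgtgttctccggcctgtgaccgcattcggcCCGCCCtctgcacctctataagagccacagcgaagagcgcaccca
Reln: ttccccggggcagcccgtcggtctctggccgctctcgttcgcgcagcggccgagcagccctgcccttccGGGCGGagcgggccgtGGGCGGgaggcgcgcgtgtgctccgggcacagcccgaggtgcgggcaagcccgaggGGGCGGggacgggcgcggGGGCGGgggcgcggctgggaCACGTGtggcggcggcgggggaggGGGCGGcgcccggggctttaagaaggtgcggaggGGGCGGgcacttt

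4 motifs were searched on both strands of these windows. The GC box GGGCGG was in 15 of the 23 promoters (65.2%), among them all of the printed ones, against 32.7% of 32851 RefSeq promoters. Matches on the opposite strand read CCGCCC. The E-box CACGTG, the letters that clock activators bind, was in 1 of the 23, that of Reln, against 6.02% of all promoters. TGANTCA, the AP-1 motif, was in 1 of the 23, that of Col6a1, against 6.75%. CAAAGTCCA, a sequence bound by HNF4 proteins, was in 0 of the 23, against 0.384%. A match only describes these letters in this window.

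Libraries held 6846471 to 9816124 counts. Levels are CPM, the counts scaled to a fixed library size, where the library total was first multiplied by its TMM factor, which corrects for composition and ranged from 0.8297 to 1.378. A count of 0 allowed 0.264 to 0.479 CPM, counting error only. Arntl was at 17.3 to 24 CPM in BH-KO livers and did not exceed 2.6 CPM in any other group, livers labelled BH-HF-KO (0.884 to 2.53 CPM) included. Hnf4a gene counts overlapped between KO and WT in the H and BH lines at 10 weeks, at 555 to 656 CPM in H-KO and 579.7 to 887 CPM in H-WT livers, and at 494 to 865 CPM in BH-KO and 770.4 to 887 CPM in BH-WT livers. They were at 819 to 977 CPM in livers labelled BH-HF-KO and 767 to 839 CPM in BH-HF-WT livers. A gene count also takes reads from outside the deleted part, and which part that is was not analysed here. The labels give no sex. Xist, which is transcribed from an inactive X chromosome, had 1082 CPM in H-WT replicate 3, and no other library had more than 3.89 CPM. The 12 hepatocyte marker genes listed as a check of the tissue summed to 31054 CPM or more in every library.

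The matrix genes differed widely in level. Per kilobase of exon (GENCODE M21, mm10), fibronectin (Fn1) was the most abundant, at a mean level of 232 CPM per kb over the 18 libraries. Next came the small proteoglycan decorin (Dcn) at 20.1, the collagen-binding glycoprotein Sparc at 9.9, biglycan (Bgn) at 8.56 and Mmp14 at 7.76 CPM per kb. The type XIV collagen gene Col14a1 was at 4.9 CPM per kb, above Col3a1 at 3.6, Col1a1 at 1.84 and Col1a2 at 1.6 CPM per kb. Lysyl oxidase (Lox), which crosslinks collagen, was lowest at 0.13 CPM per kb, just under Tagln at 0.19 CPM per kb. Smooth muscle actin (Acta2), the usual marker of myofibroblasts, lay between 0 and 10.6 CPM, and Tagln did not exceed 0.796 CPM in any library. Fn1 varied least over the libraries, with its highest level 2.15 times its lowest. Elastin (Eln) varied most among genes counted in every library, with a ratio of 31.5 (7.86 against 0.249 CPM). The lower value, in BH-HF-WT replicate 2, came from 2 counts and was below the level that a count of 0 allows there, so the ratio is uncertain. As the samples are bulk tissue, fewer cells of a type and less RNA per cell cannot be told apart.

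**Figure D1:**
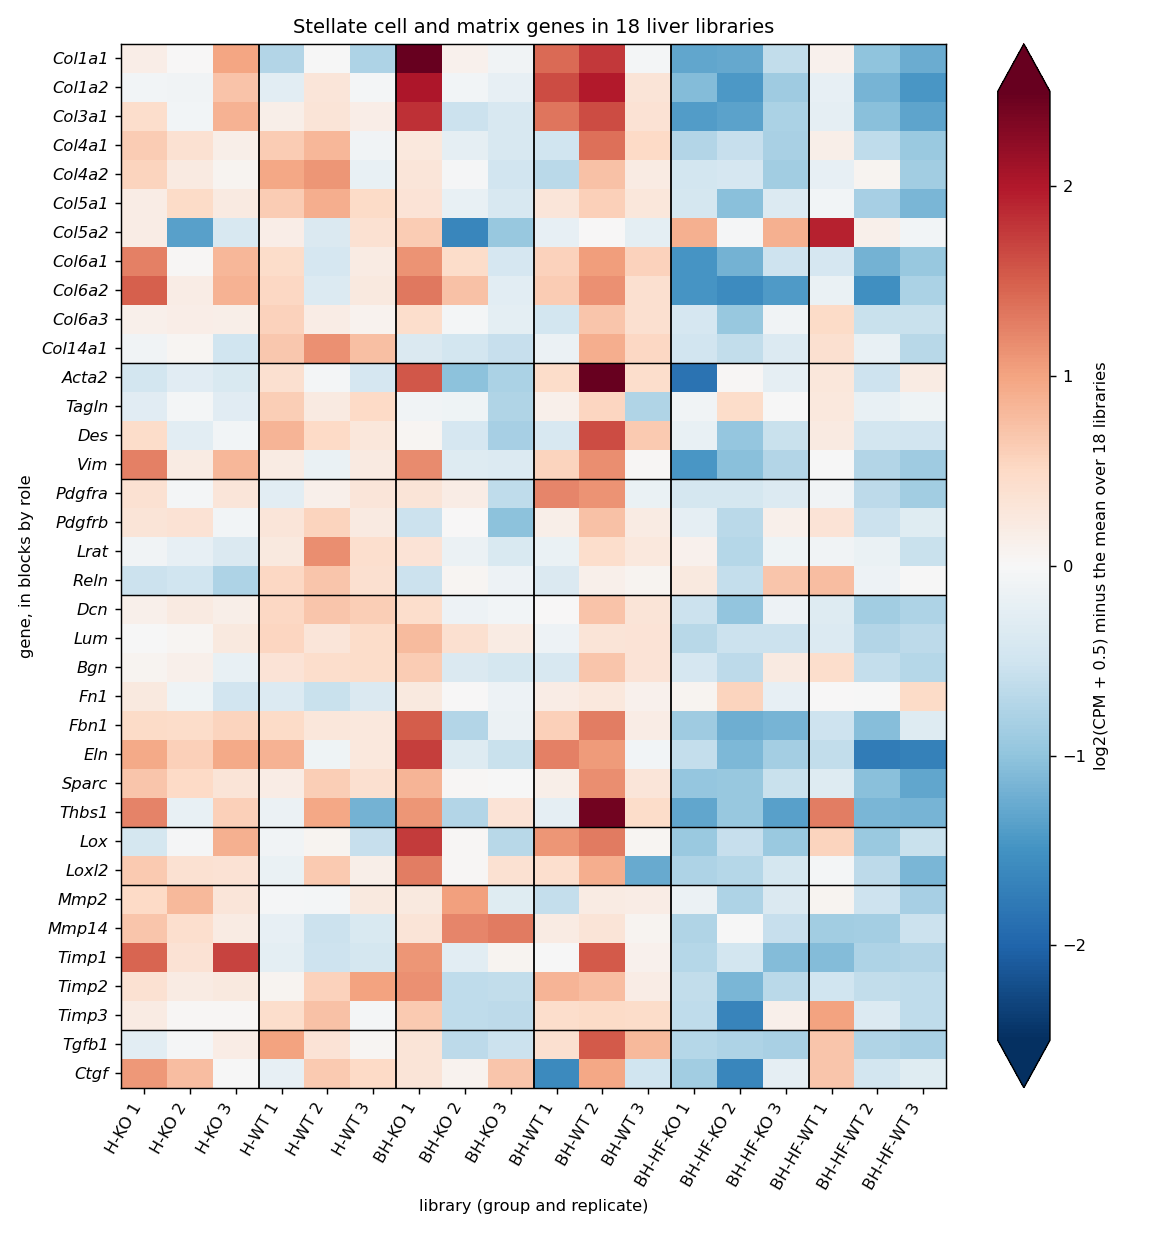
Level of each of the 36 genes (rows, in blocks by role) in each library (columns, KO left of WT in each pair of groups), as log2(CPM + 0.5) minus the gene's mean over the 18 libraries; red is above and blue below that mean. BH-KO replicate 1 and BH-WT replicate 2 are red over most rows, and the 6 HF libraries are mostly blue.

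H-KO livers differed from H-WT livers in 5 of the 35 tested genes, with 2 higher and 3 lower. Mmp14 and Timp1, a collagenase and an inhibitor of collagenases, were higher, and Reln, Col14a1 and Lrat, all genes of resting stellate cells or fibroblasts, were lower. The test was edgeR's quasi-likelihood F-test on all 18 libraries, with Benjamini-Hochberg adjusted p-values over 13958 genes and a threshold of 0.05. In the same comparison 34.9% of all tested genes passed, 15.8% higher and 19.1% lower. The median log2 fold change of the 35 genes was 0.10, against 0 over all genes.

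Mmp14 (chr14:54431612-54445364, mm10, as are the gene positions that follow) stood at 67.5, 56.0 and 48.0 CPM in H-KO livers, against 36, 28.5 and 32.0 CPM in H-WT livers. Every KO library lay above every WT library, and the log2 fold change was 0.83 ± 0.23 (SE, adjusted p = 0.0116). Timp1 (chrX:20870166-20874735) was at 2.4, 0.862 and 2.92 CPM in H-KO livers, against 0.398, 0.246 and 0.28 CPM in H-WT livers, where all 3 values are at or below the level that a count of 0 allows in that library. The groups did not overlap and held 62 counts (H-KO) and 7 counts (H-WT) (log2 fold change 2.69 ± 0.79, adjusted p = 0.0146). Timp1 overlaps Syn1 on the opposite strand, which had at most 1.28 CPM, and whether reads were counted by strand is not given.

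Reln (chr5:21884454-22344702), which encodes the secreted glycoprotein reelin and marks stellate cells in liver, was at 30.3, 31.4 and 25.9 CPM in H-KO livers, against 64.0, 72.3 and 59.0 CPM in H-WT livers. All KO libraries lay far below all WT libraries, and the log2 fold change was −1.16 ± 0.29 (adjusted p = 0.00657). Col14a1 (chr15:55307750-55520803), a collagen attached to the surface of fibrils, was at 29.7, 32.7 and 22.3 CPM in H-KO livers, against 50.8, 70.7 and 53.3 CPM in H-WT livers. These groups did not overlap either (−1.04 ± 0.27, adjusted p = 0.00685). Lrat (chr3:82892579-82903973) was at 9.31, 8.62 and 7.68 CPM in H-KO livers, against 11.9, 23 and 13.6 CPM in H-WT livers, again without overlap (−0.92 ± 0.28, adjusted p = 0.0169).

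The fibril-forming collagens did not pass in H-KO livers in the fit over all libraries. Col1a1 was at 9.81, 8.84 and 17.9 CPM in H-KO livers, against 5.04, 8.63 and 4.89 CPM in H-WT livers. All KO libraries were above all WT libraries, but Col1a1 did not pass with the spread estimated over all 6 groups (0.97 ± 0.70, adjusted p = 0.306). With the H-KO and H-WT libraries fitted alone it passed (0.98 ± 0.33, adjusted p = 0.0469). Col3a1 overlapped, at 38.2, 26.8 and 51.7 CPM in H-KO and 30.9, 35.1 and 31.5 CPM in H-WT livers (0.26 ± 0.55, adjusted p = 0.757). Dcn, which binds collagen fibrils, stood at 121, 129 and 123 CPM in H-KO livers and 158, 179 and 171 CPM in H-WT livers. It did not overlap between the groups and did not pass over all libraries (−0.44 ± 0.22, adjusted p = 0.134), but passed with the H groups fitted alone (−0.43 ± 0.10, adjusted p = 0.00971). Fn1 was at 3161, 2474 and 1897 CPM in H-KO livers and 2094, 1815 and 2078 CPM in H-WT livers, with overlap (0.33 ± 0.23, adjusted p = 0.293). In all, 10 of the 35 genes had groups that did not overlap, against 51.8% of all tested genes.

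The H-KO calls depended on the libraries fitted and on their scaling. With the H-KO and H-WT libraries alone 7 genes passed, Col1a1 and Mmp14 higher and Bgn, Col14a1, Dcn, Lrat and Reln lower, and Timp1 had too few counts there to be tested. With library size alone and no composition factor, the median of all genes moved by 0.51 (log2), 7 genes passed, all higher (Col6a1, Col6a2, Fn1, Mmp14, Mmp2, Timp1 and Vim), and Reln (−0.65), Lrat (−0.42) and Col14a1 (−0.54) kept their direction without passing. Over all genes that scaling gave 6000 higher and 1291 lower, and upper-quartile factors gave 3338 higher and 2063 lower, where TMM gave 2209 higher and 2662 lower. Without H-WT replicate 2 only Col14a1 and Reln passed, and without H-KO replicate 3 Col14a1, Reln and Mmp14 did. Without H-WT replicate 3, the library with Xist, 5 genes passed.

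**Figure D2:**
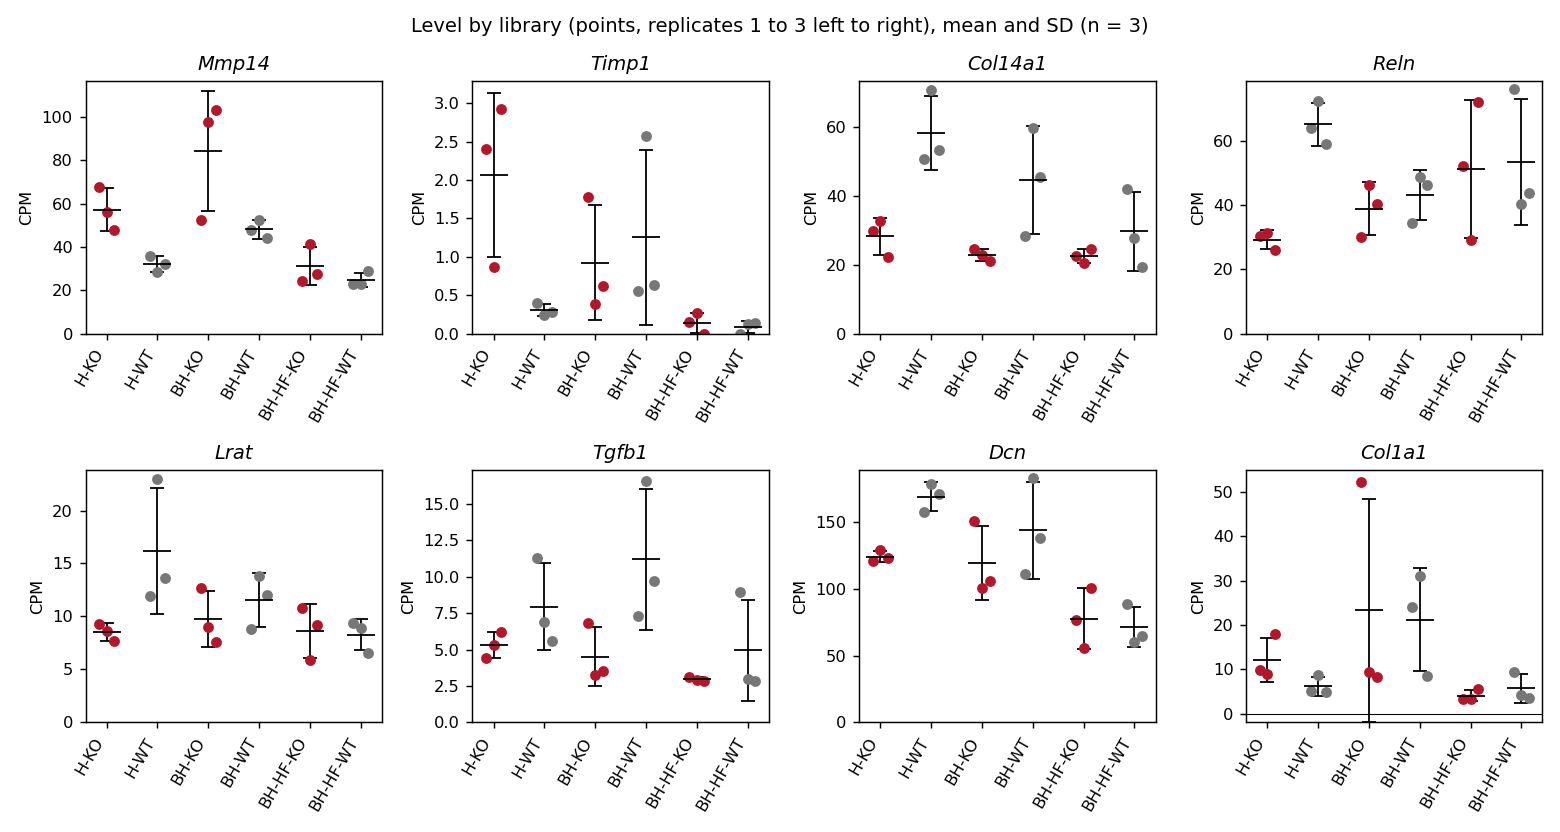
CPM of 8 genes in each library (points, KO red and WT grey) with the mean and SD of each group (n = 3), KO left of WT. Mmp14 is higher in KO than in WT livers at 10 weeks in both lines, Timp1 in the H line, and Col1a1 reaches 52.3 CPM in 1 BH-KO library.

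Some genes that act with the matrix genes were higher and others lower in H-KO livers, where 15.8% of all tested genes were higher and 19.1% lower. Of 20 collagen processing enzymes 7 were higher and 4 lower. The galactosyltransferase Colgalt2, which glycosylates collagen, averaged 8.09 ± 0.769 CPM in H-KO and 0.692 ± 0.255 CPM in H-WT livers (SD, n = 3 each; log2 fold change 3.51 ± 0.56, adjusted p = 0.000294). Adamts14, a procollagen peptidase, also rose (3.23 ± 0.76, adjusted p = 0.00438), while Bmp1, another procollagen peptidase, fell (−0.53 ± 0.19, adjusted p = 0.0392). Of 13 other collagens 2 were higher and 2 lower, and the most abundant of those 4, Col18a1, the source of endostatin, averaged 395 ± 14.1 CPM in H-KO and 887 ± 52.5 CPM in H-WT livers (−1.17 ± 0.20, adjusted p = 0.000472). Of 31 basement membrane genes and matrix glycoproteins 6 were higher and 3 lower. Nidogen 2 (Nid2) was at 25.0, 18.3 and 27.5 CPM in H-KO livers, against 2.65, 2.34 and 2.38 CPM in H-WT livers (3.26 ± 0.37, adjusted p = 2.54e-05). Vitronectin (Vtn), a plasma protein of hepatocytes, averaged 222 ± 37.1 CPM in H-KO and 2317 ± 308 CPM in H-WT livers (−3.38 ± 0.46, adjusted p = 9.37e-05).

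Crosslinking, proteolysis and signalling genes of both directions were also found in H-KO livers. Of the proteases and inhibitors 23.1% were higher and 15.4% lower, and of the TGF-beta and PDGF pathway genes 14.3% were higher and 9.52% lower, against the 15.8% and 19.1% of all genes. Transglutaminase 2 (Tgm2), which crosslinks proteins, was the 1 of 4 genes in a list of lysyl oxidases and transglutaminase to pass, at 415, 304 and 297 CPM in H-KO and 82.7, 69.7 and 87.9 CPM in H-WT livers (2.08 ± 0.25, adjusted p = 3.13e-05). Of 13 proteases and inhibitors 3 were higher, led by the plasminogen activator Plat (3.30 ± 0.57, adjusted p = 0.000535), and 2 were lower, led by the membrane metalloproteinase Mmp15 (−2.39 ± 0.25, adjusted p = 1.69e-05). Of 21 TGF-beta and PDGF pathway genes 3 were higher and 2 lower, and the ligand Pdgfc showed the largest rise (2.17 ± 0.46, adjusted p = 0.00217). Of 12 integrins 3 were higher, among them Itga5, a fibronectin receptor subunit (0.57 ± 0.16, adjusted p = 0.0125), and Itga1, a collagen receptor subunit, was the 1 that fell (−1.03 ± 0.20, adjusted p = 0.00112).

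Marker lists of stellate and other cell types were measured in the same livers, and their part in the H-KO differences was not tested. Of 18 further markers of resting stellate cells 0 were higher and 3 lower (16.7%, against 19.1% of all genes) in H-KO livers, and the list summed to 155 to 179.8 CPM, against 223 to 292 CPM in H-WT livers. Estimates were below 0 for 15 of these 18 markers, and their median log2 fold change was −0.62, against 0 over all genes. The collectin Colec10 averaged 17.2 ± 2.16 CPM in H-KO and 41.4 ± 12.6 CPM in H-WT livers (−1.27 ± 0.25, adjusted p = 0.0012). Bmp5, a bone morphogenetic protein, averaged 1.49 ± 0.373 CPM in H-KO and 4.49 ± 0.882 CPM in H-WT livers (−1.59 ± 0.45, adjusted p = 0.0123). Of 9 bile duct markers 5 were higher and 0 lower, with sums of 153 to 237 CPM in H-KO and 58.9 to 93.4 CPM in H-WT livers. Of 12 hepatocyte markers 7 were lower, with sums of 31054 to 38115 CPM in H-KO and 111232 to 122822 CPM in H-WT livers. Macrophage sums were 182 to 281 CPM in H-KO and 84.3 to 606 CPM in H-WT livers, with 0 of 15 markers passed.

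BH-KO livers also differed from BH-WT livers in 5 of the 35 genes, with 1 higher and 4 lower. Mmp14 was higher. Col14a1 was lower, as were desmin (Des), the intermediate filament of stellate and muscle cells, the PDGF receptor gene Pdgfrb, and Tgfb1, the ligand that drives stellate cells to make collagen. Of all tested genes 28.6% passed, 14.3% higher and 14.3% lower. The median log2 fold change was −0.28, against 0.03 over all genes, and 29 of the 35 estimates were below 0. The H and BH comparisons share no library.

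Mmp14 was at 52.5, 97.5 and 103 CPM in BH-KO livers, against 48.0, 52.3 and 43.9 CPM in BH-WT livers. The lowest KO library was just above the highest WT library, and the other 2 were far above (0.81 ± 0.23, adjusted p = 0.0166). Col14a1 was at 24.5, 22.8 and 21 CPM in BH-KO livers, against 28.3, 59.7 and 45.5 CPM in BH-WT livers. The KO libraries lay close together below the widely spread WT libraries (−0.97 ± 0.27, adjusted p = 0.0154).

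Tgfb1 (chr7:25687002-25705077) was at 6.82, 3.22 and 3.52 CPM in BH-KO livers, against 7.28, 16.6 and 9.73 CPM in BH-WT livers, without overlap (−1.34 ± 0.43, adjusted p = 0.029). Pdgfrb (chr18:61045150-61085061) was at 4.3, 6.45 and 2.9 CPM in BH-KO livers, against 7.14, 11 and 7.5 CPM in BH-WT livers, also without overlap (−0.91 ± 0.32, adjusted p = 0.0414). Des (chr1:75360329-75368579) was at 2.67, 1.8 and 1.23 CPM in BH-KO livers, against 1.82, 9.05 and 4.31 CPM in BH-WT livers. Its groups overlapped, and BH-WT replicate 2 held the highest value (−1.45 ± 0.49, adjusted p = 0.0359). Pdgfra, the other PDGF receptor gene, stayed just short of the threshold, at 7.86, 7.11 and 3.78 CPM in BH-KO and 15, 14.1 and 5.43 CPM in BH-WT livers (−0.90 ± 0.34, adjusted p = 0.0599). In all, 4 of the 35 genes had groups that did not overlap, against 34.9% of all tested genes.

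Of the 5 genes that passed in H-KO livers, Reln, Lrat and Timp1 did not pass in BH-KO livers. Reln was at 30.2, 46.2 and 40.4 CPM in BH-KO livers and 34.3, 48.8 and 46.3 CPM in BH-WT livers, with overlap (−0.14 ± 0.29, adjusted p = 0.735). Lrat was at 12.7, 9.01 and 7.56 CPM in BH-KO and 8.83, 13.8 and 12 CPM in BH-WT livers (−0.25 ± 0.28, adjusted p = 0.519). Timp1 was at 1.78, 0.379 and 0.615 CPM in BH-KO and 0.56, 2.57 and 0.638 CPM in BH-WT livers (−0.57 ± 0.70, adjusted p = 0.566). When the KO effect in the BH line was compared with that in the H line, 0 of the 35 genes passed, against 6.06% of all genes (3.76% higher and 2.3% lower), and 4 of the 35 had an unadjusted p under 0.05. The nearest were Timp1 (difference of log2 fold changes −3.27 ± 1.07, adjusted p = 0.0783), the proteoglycan lumican, Lum (0.65 ± 0.26, adjusted p = 0.146), and Reln (1.01 ± 0.41, adjusted p = 0.149). DESeq2, the other tool, called 0 of the 35 in that contrast.

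**Figure D3:**
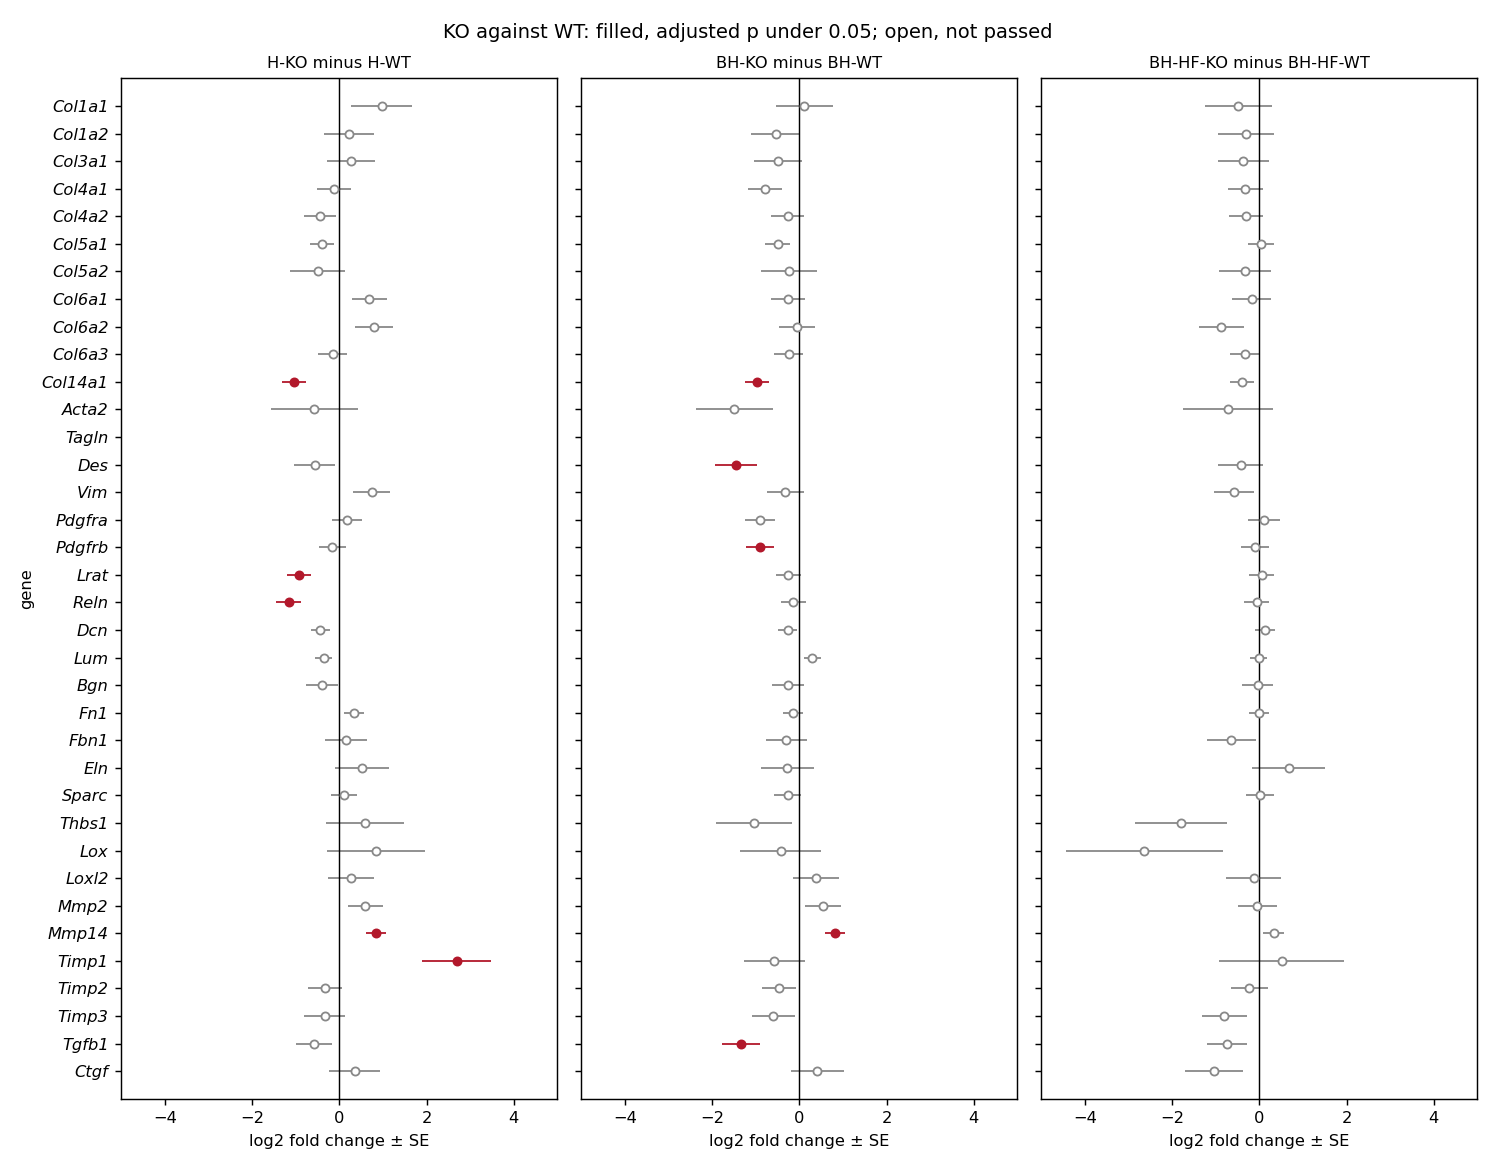
Log2 fold change of KO over WT (points, bars 1 SE) for the 36 genes in the H line, the BH line and the BH line in the HF setting; filled points passed at an adjusted p under 0.05 and Tagln was not tested. Mmp14 and Col14a1 are filled in both 10-week panels, and no point is filled in the HF panel.

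The BH-KO libraries were not alike. Replicate 1 was the highest of its group for 30 of the 35 genes (85.7%), against 42.0% of all tested genes. Col1a1 stood at 52.3, 9.48 and 8.18 CPM in BH-KO livers, against 24, 31.1 and 8.46 CPM in BH-WT livers (0.11 ± 0.65, adjusted p = 0.917). Replicate 1 was above all WT libraries and the other 2 near the lowest. The 11 collagen genes together summed to 366, 142 and 121 CPM in BH-KO livers and to 248, 392 and 209.5 CPM in BH-WT livers. Among the WT libraries, replicate 2 was the highest for 31 of the 35 genes (88.6%), against 37.4% of all genes.

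The BH-KO calls changed when single libraries were left out. Without BH-KO replicate 1, 13 of the 35 genes passed, 1 higher (Mmp14) and 12 lower. The 12 were Acta2 (−3.39 ± 0.88, adjusted p = 0.00665), Col1a2 (−1.64 ± 0.45, adjusted p = 0.0113), Col3a1 (−1.70 ± 0.39, adjusted p = 0.004), the metalloproteinase inhibitor gene Timp2 (−1.32 ± 0.25, adjusted p = 0.000661), Col5a1, Col14a1, Des, Eln, Fbn1, Pdgfra, Tgfb1 and Vim. Without BH-KO replicate 3 none of the 35 genes passed, without BH-KO replicate 2 only Pdgfrb did and without BH-WT replicate 2 only Mmp14 did. Without BH-WT replicate 3 Col14a1, Pdgfra and Tgfb1 passed, and when the BH-KO and BH-WT libraries were fitted alone 0 passed. The share of all genes that passed with 1 library left out is not given, here or for the other comparisons. These counts are therefore not set against it. With library size alone, Mmp14 and Lum were higher and Tgfb1 was lower, and over all genes that scaling gave 4351 higher and 1203 lower, where TMM gave 2000 higher and 1990 lower.

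**Figure D4:**
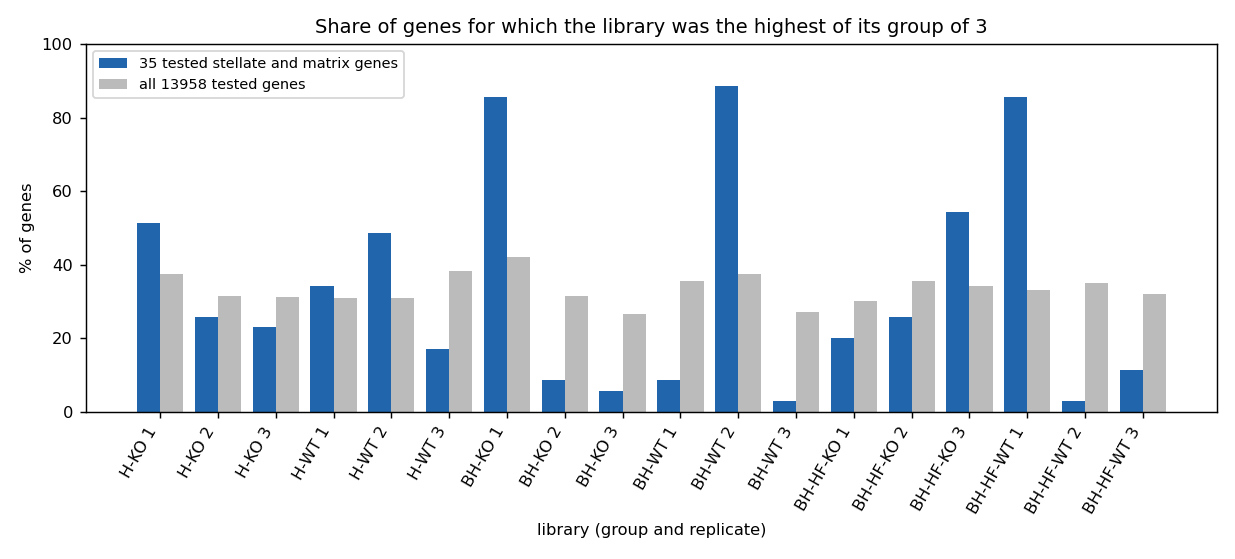
Share of genes (%) for which a library had the highest CPM of its group of 3, for the 35 tested genes (blue) and all 13958 tested genes (grey). BH-KO replicate 1 (85.7%), BH-WT replicate 2 (88.6%) and BH-HF-WT replicate 1 (85.7%) stand out in blue, while the grey bars stay between 26.5% and 42.0%.

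Marker lists of other cells differed between the same BH libraries, where 14.3% of all tested genes were higher and 14.3% lower in BH-KO livers. The part of these cells in the result was not tested. Hepatocyte marker sums were 95229, 52054 and 46868 CPM in BH-KO replicates 1 to 3 and 111657 to 143158 CPM in BH-WT livers. Macrophage marker sums were 397, 70.0 and 87.7 CPM in BH-KO replicates 1 to 3 and 315, 1498 and 865 CPM in BH-WT replicates 1 to 3, and 9 of 15 macrophage markers were lower in BH-KO livers, led by Cd5l (−3.22 ± 0.82, adjusted p = 0.0114). Of 9 bile duct markers 3 were higher, Sox9 and Spp1 among them, and 1 lower (Ehf), 5 estimates were below 0 and the median log2 fold change was −0.95. Their sums were 153 to 398 CPM in BH-KO and 68.6 to 148 CPM in BH-WT livers, and those of the BH-KO livers were largely Spp1 (66.4 to 269 CPM in BH-KO and 29.5 to 41.3 CPM in BH-WT livers) and Sox9 (26.7 to 65.3 CPM in BH-KO and 2.81 to 4.06 CPM in BH-WT livers). Of 16 endothelial markers 3 were lower (18.8%, close to the 14.3% of all genes) and 0 higher, and 13 estimates were below 0. The 3 were Cdh5 (−1.60 ± 0.45, adjusted p = 0.0174), Stab1 (−1.10 ± 0.30, adjusted p = 0.0145) and Clec4g. Endothelial sums were 182 to 206 CPM in BH-KO and 187 to 383 CPM in BH-WT livers. Mesothelial sums were 62.7, 22.4 and 20.7 CPM in BH-KO replicates 1 to 3 and 35.9 to 65.5 CPM in BH-WT livers, with 0 of 8 markers passed. Of 18 further markers of resting stellate cells, 1 was higher, the TGF-beta pseudoreceptor Bambi (1.24 ± 0.31, adjusted p = 0.00959), and 5 were lower. Among the 5 were Ngfr, the nerve growth factor receptor (−1.70 ± 0.54, adjusted p = 0.028), and Pth1r, the parathyroid hormone receptor (−1.37 ± 0.31, adjusted p = 0.00526). The stellate marker sums overlapped, at 126 to 154 CPM in BH-KO and 148 to 252 CPM in BH-WT livers. Estimates were below 0 for 13 of these 18 markers, and their median log2 fold change was −0.57, against 0.03 over all genes.

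The further matrix lists also held genes of both directions in BH-KO livers, where 14.3% of all genes were higher and 14.3% lower. Of 20 collagen processing enzymes 4 were higher and 4 lower, including the prolyl hydroxylase partner Crtap (1.24 ± 0.28, adjusted p = 0.00444) and the lysyl hydroxylase Plod1 (−0.64 ± 0.10, adjusted p = 0.000295). Of 13 other collagens 1 was higher and 3 lower. Col15a1, a basement membrane collagen, was at 4.89, 0.379 and 1.85 CPM in BH-KO livers, against 10.4, 28.6 and 16.6 CPM in BH-WT livers (−3.07 ± 0.71, adjusted p = 0.00655). Of 31 basement membrane genes and glycoproteins 2 were higher and 5 lower. Nid2 averaged 18.8 ± 9.34 CPM in BH-KO and 5.75 ± 0.982 CPM in BH-WT livers (1.71 ± 0.34, adjusted p = 0.00213). Osteopontin (Spp1), which is also on the bile duct list, averaged 184 ± 105 CPM in BH-KO and 35.1 ± 5.93 CPM in BH-WT livers (2.39 ± 0.48, adjusted p = 0.00289).

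Crosslinking, protease, signalling and receptor genes also moved both ways in the BH line. Tgm2 was at 186, 409 and 338 CPM in BH-KO livers, against 103, 97.1 and 112 CPM in BH-WT livers (1.58 ± 0.24, adjusted p = 0.000335), and was 1 of 2 genes higher among 4 lysyl oxidases and transglutaminase. Mmp15, the 1 of 13 proteases and inhibitors that passed, was lower (−1.74 ± 0.25, adjusted p = 0.000192). Of 21 TGF-beta and PDGF pathway genes 4 were higher and 2 lower. Pdgfc was at 15.9, 37.1 and 43.4 CPM in BH-KO livers, against 4.62, 4.4 and 2.71 CPM in BH-WT livers (3.03 ± 0.44, adjusted p = 0.000261), while the receptor gene Tgfbr2 was lower (−0.91 ± 0.30, adjusted p = 0.0368). Of 12 integrins 3 were higher and 2 lower, with Itga5 at 45.7, 57.7 and 65.5 CPM in BH-KO and 22.4, 23.2 and 23.8 CPM in BH-WT livers (1.29 ± 0.16, adjusted p = 6.76e-05).

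BH-KO livers were set directly against H-KO livers, a comparison in which line and genotype differ together. Of the 35 genes 0 passed with edgeR, 3 had an unadjusted p under 0.05, and DESeq2 called 0, while 16.4% of all tested genes passed (10.1% higher and 6.3% lower). Mmp14 was at 52.5, 97.5 and 103 CPM in BH-KO livers, against 67.5, 56.0 and 48.0 CPM in H-KO livers, with overlap (0.56 ± 0.23, adjusted p = 0.102). Without BH-KO replicate 1, Mmp14 was higher and Timp2 and Vim were lower, and without BH-KO replicate 2 Pdgfrb was lower. BH-WT and H-WT livers, the controls of the lines, differed in 0 of the 35 genes, with 6 at an unadjusted p under 0.05 and 0 calls by DESeq2, while 0.165% of all genes passed (0.0573% higher and 0.107% lower). Groups did not overlap for 8 of the 35 genes, against 14.7% of all genes. Fn1 was at 3027, 3203 and 2878 CPM in BH-WT livers, above 2094, 1815 and 2078 CPM in H-WT livers (0.61 ± 0.23, adjusted p = 0.469).

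In the HF setting, livers labelled BH-HF-KO differed from BH-HF-WT livers in 0 of the 35 genes. The same was true of 0% of all 13958 tested genes, with 490 at an unadjusted p under 0.05 and 0 calls by DESeq2, and of the 35 genes 0 had an unadjusted p under 0.05. In these livers Arntl was not at the level of BH-KO livers, as given above. Albumin (Alb) did run with the labels, at 29852 to 41338 CPM in livers labelled BH-HF-KO and 71822 to 90743 CPM in BH-HF-WT livers, without overlap, though it did not pass. It took 2.68% to 3.72% of the counts in livers labelled BH-HF-KO and 6.18% to 7.71% in BH-HF-WT livers. At 10 weeks Alb took 1.79% to 3.71% of the counts in BH-KO and 6.69% to 8.48% in BH-WT livers. Alb is 1 of 12 listed hepatocyte markers, of which 0 passed in the HF setting, and the other markers of that list overlapped there. Of all tested genes 10.4% had HF groups that did not overlap. Mmp14 was at 24.5, 41.4 and 27.7 CPM in livers labelled BH-HF-KO and 22.7, 23 and 28.7 CPM in BH-HF-WT livers, with overlap (0.33 ± 0.24, adjusted p = 1.0). Col14a1 was at 22.4, 20.5 and 24.7 CPM in livers labelled BH-HF-KO and 42.0, 27.8 and 19.4 CPM in BH-HF-WT livers (−0.40 ± 0.27, adjusted p = 1.0). The median log2 fold change was −0.30, with 27 of 35 estimates below 0. BH-HF-WT replicate 1 was the highest of its group for 30 of the 35 genes (85.7%), against 33.0% of all genes. The 11 collagens summed to 105, 88.8 and 119 CPM in livers labelled BH-HF-KO, and to 203, 108 and 86.1 CPM in BH-HF-WT livers. The KO effect in the HF setting minus that at 10 weeks passed for 0 of the 35 genes, against 6.1% of all genes (3.45% higher and 2.65% lower), and Pdgfra was nearest (1.0 ± 0.50, adjusted p = 0.251).

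Of the 8 comparisons made, that of BH-HF-WT with BH-WT livers, both controls, had the most matrix genes passed. Of the 35 genes 11 were lower and 0 higher, against 4.21% of all tested genes lower, 2.79% higher and 7% in either direction. The 11 were the collagens Col1a2, Col5a1, Col6a1 and Col6a2, the glycoproteins and proteoglycans Sparc, Dcn, Lum and Eln, the receptor gene Pdgfra, and Mmp14 and Timp1. The median log2 fold change was −1.08, against −0.02 over all genes, and 32 of 35 estimates were below 0. Diet and age cannot be told apart here, and the BH-WT libraries also served as controls for BH-KO.

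Sparc (chr11:55394500-55423183) was at 27.0, 16 and 13.4 CPM in BH-HF-WT livers, against 37.3, 75.8 and 41.5 CPM in BH-WT livers, without overlap (−1.45 ± 0.31, adjusted p = 0.0163). Dcn (chr10:97479609-97518143) was at 88.4, 60.4 and 64.8 CPM in BH-HF-WT livers, against 111, 183 and 138 CPM in BH-WT livers, without overlap (−1.02 ± 0.22, adjusted p = 0.0163). Lum, which lies near it on chromosome 10 (chr10:97565128-97572703), also a small leucine-rich proteoglycan, was at 6.15, 4.62 and 4.86 CPM in BH-HF-WT livers, against 7.28, 10.1 and 10.2 CPM in BH-WT livers (−0.82 ± 0.20, adjusted p = 0.0229). All HF libraries were below all 10-week libraries for these 3 genes.

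Among the fibril-forming collagens, Col1a2 (chr6:4504814-4541544) was at 12.8, 6.36 and 5.15 CPM in BH-HF-WT livers, against 47.2, 60.6 and 18.7 CPM in BH-WT livers (−2.38 ± 0.60, adjusted p = 0.0338). Its partner in type I collagen, Col1a1, was at 9.48, 4.12 and 3.43 CPM in BH-HF-WT livers, against 24, 31.1 and 8.46 CPM in BH-WT livers. Col1a1 overlapped in 1 pair of libraries and did not pass (−1.90 ± 0.70, adjusted p = 0.114). Col3a1 did not overlap, at 23.8, 13.3 and 10.9 CPM in BH-HF-WT and 71.4, 87.9 and 35.9 CPM in BH-WT livers, and was just short of the threshold (−2.02 ± 0.58, adjusted p = 0.0515). Col5a1, a regulator of fibril diameter, passed (−1.08 ± 0.29, adjusted p = 0.0354). Col5a2, its partner chain, was at 47.6, 13.3 and 11.6 CPM in BH-HF-WT livers, against 10.4, 12.3 and 10.1 CPM in BH-WT livers, with 1 HF library far above all others (1.14 ± 0.62, adjusted p = 0.284).

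The microfibril-forming type VI collagen chains Col6a1 and Col6a2 lie close together on chromosome 10. Col6a1 (chr10:76708792-76726168) was at 8.2, 4.62 and 5.58 CPM in BH-HF-WT livers, against 17, 23.6 and 16.9 CPM in BH-WT livers (−1.64 ± 0.42, adjusted p = 0.0326). Col6a2 (chr10:76595762-76623630) was at 6.92, 2.37 and 4.29 CPM in BH-HF-WT livers, against 12.3, 17.8 and 10.4 CPM in BH-WT livers (−1.58 ± 0.45, adjusted p = 0.0481). Neither overlapped, whereas the third chain, Col6a3, did (−0.44 ± 0.33, adjusted p = 0.464). Eln (chr5:134702593-134747323), the elastic fibre protein, was at 1.15, 0.249 and 0.286 CPM in BH-HF-WT livers, against 5.6, 4.77 and 1.91 CPM in BH-WT livers (−2.83 ± 0.74, adjusted p = 0.0336), with 2 HF libraries below the level that a count of 0 allows.

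Pdgfra (chr5:75152292-75198215), the receptor of fibroblasts and stellate cells, was at 5.76, 3.74 and 3.15 CPM in BH-HF-WT livers, against 15, 14.1 and 5.43 CPM in BH-WT livers. Its groups overlapped at the highest HF and the lowest 10-week library (−1.45 ± 0.36, adjusted p = 0.0262). Mmp14 was at 22.7, 23 and 28.7 CPM in BH-HF-WT livers, against 48.0, 52.3 and 43.9 CPM in BH-WT livers, with a wide gap (−0.96 ± 0.24, adjusted p = 0.0267). Timp1 was at 0, 0.125 and 0.143 CPM in BH-HF-WT livers, against 0.56, 2.57 and 0.638 CPM in BH-WT livers. It had 2 counts in the 3 BH-HF-WT libraries and 29 in the 3 BH-WT libraries, a ratio of 0.0652 (exact 95% counting interval 0.00754 to 0.258), and passed (adjusted p = 0.0417). The interval covers counting error only and not the spread between mice, and BH-WT replicate 2 held 21 of the 29 counts. All 3 BH-HF-WT values of Timp1 were below the level that a count of 0 allows in that library. The stellate cell genes Lrat (−0.48 ± 0.28, adjusted p = 0.321), Pdgfrb (−0.54 ± 0.31, adjusted p = 0.316) and Reln (0.31 ± 0.29, adjusted p = 0.563) did not pass, nor did Fn1 (−0.01 ± 0.23, adjusted p = 0.98). In all, 15 of the 35 genes had groups that did not overlap, against 31% of all genes.

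**Figure D5:**
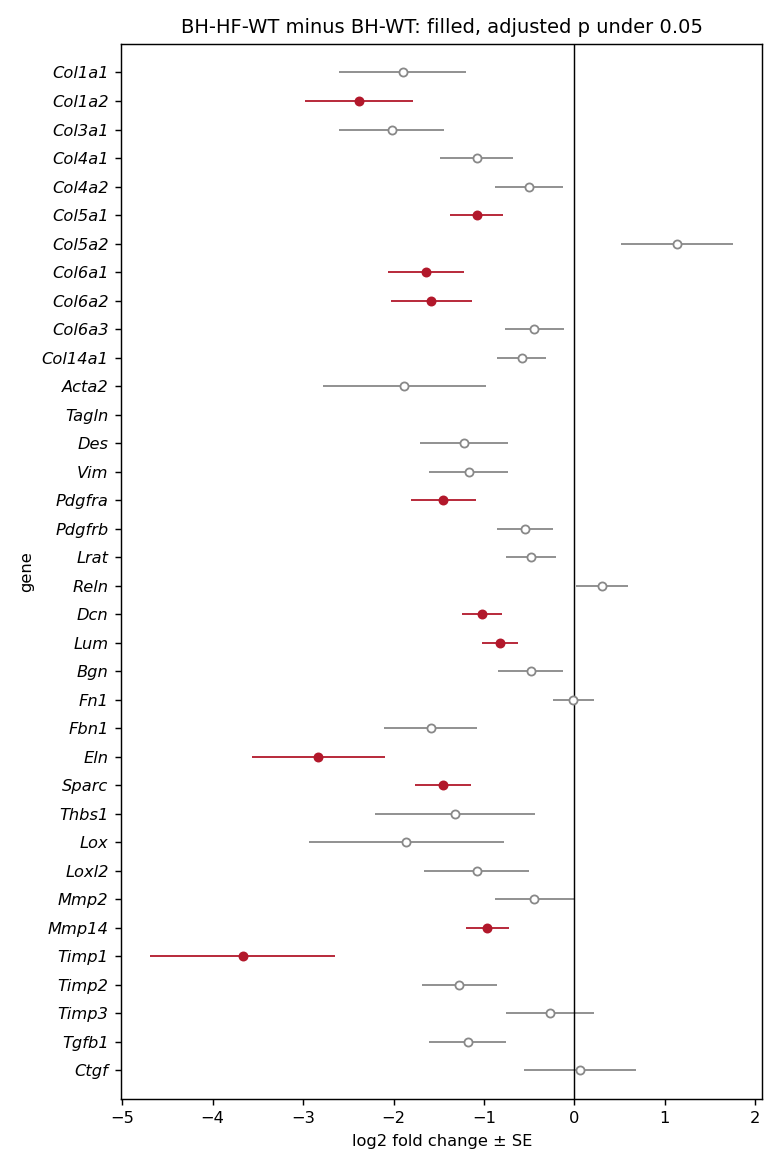
Log2 fold change of BH-HF-WT over BH-WT livers (points, bars 1 SE) for the 36 genes; filled points passed at an adjusted p under 0.05 and Tagln was not tested. All 11 filled points are left of 0, and Col5a2, Reln and Ctgf are the 3 points right of 0.

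Of the 35 tested genes 17 passed in at least 1 of the 8 comparisons and 18 in none. The 18 were Acta2, Bgn, Col1a1, Col3a1, Col4a1, Col4a2, Col5a2, Col6a3, Ctgf, Fbn1, Fn1, Lox, Loxl2, Mmp2, Thbs1, Timp2, Timp3 and Vim. Fbn1, which encodes the microfibril protein fibrillin, was at 2.05, 1.25 and 2.43 CPM in BH-HF-WT livers, against 5.04, 8.44 and 3.67 CPM in BH-WT livers, without overlap (−1.59 ± 0.51, adjusted p = 0.0702). Col4a1, a chain of the basement membrane collagen, was at 20.6, 11.7 and 9.44 CPM in BH-HF-WT livers, against 13, 48.8 and 26.3 CPM in BH-WT livers, with overlap (−1.08 ± 0.40, adjusted p = 0.114). Thrombospondin 1 (Thbs1), which can activate latent TGF-beta, was at 6.08, 1.33 and 3.34 CPM in BH-KO livers and 2.1, 15.8 and 3.67 CPM in BH-WT livers, where replicate 2 stood far above the rest.

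The BH-HF-WT calls also rested on single libraries. Without BH-HF-WT replicate 2, or without BH-WT replicate 2, 0 of the 35 genes passed, and without BH-HF-WT replicate 3 only Mmp14 did. Without BH-WT replicate 3, 7 passed. With only BH-HF-WT and BH-WT in the fit 5 passed (Col6a1, Dcn, Eln, Mmp14 and Timp2), and with no filter on low counts 6 did, all lower in each case. With library size alone the split over all genes was 191 higher and 582 lower, where TMM gave 390 higher and 587 lower.

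Other matrix genes and some markers of surface, portal and bile duct cells were lower in the same BH-HF-WT livers. Over all tested genes 4.21% were lower and 2.79% higher. Of 31 basement membrane genes and glycoproteins 0 were higher and 4 lower, including the fibulins Fbln1 (−2.63 ± 0.70, adjusted p = 0.0361) and Fbln2 (−2.5 ± 0.64, adjusted p = 0.0299). In that list 29 of the 31 estimates were below 0, and the median log2 fold change was −1.01, against −0.02 over all genes. Loxl1, a lysyl oxidase that acts on elastin, was the 1 of 4 crosslinking genes that passed (−2.5 ± 0.63, adjusted p = 0.029). No collagen processing enzyme (of 20), other collagen (of 13) or further protease or inhibitor (of 13) passed. Their median log2 fold changes were −0.34, −0.91 and −1.01, against −0.02 over all genes. Estimates were below 0 for 15, 9 and 10 of them, and 7, 9 and 5 had an unadjusted p under 0.05. Of 18 stellate cell markers 1 was lower, the transcription factor gene Tcf21 (−1.49 ± 0.38, adjusted p = 0.0306). The 18 stellate estimates had a median log2 fold change of −0.43, and 15 were below 0. Of 8 mesothelial markers 5 were lower, with sums of 4.29 to 7.56 CPM in BH-HF-WT and 35.9 to 65.5 CPM in BH-WT livers. Of 8 portal fibroblast markers 4 were lower, Msln, which is also on the mesothelial list, Fbln2, counted above with the glycoproteins, Cd34 and Entpd2. Portal sums were 29.3 to 44.6 CPM in BH-HF-WT and 61.1 to 135 CPM in BH-WT livers. They were largely Gas6 (21.6 to 38.7 CPM in BH-HF-WT and 37.1 to 106 CPM in BH-WT livers), which did not pass. Macrophage sums were 85.8 to 328 CPM in BH-HF-WT and 315 to 1498 CPM in BH-WT livers. Only 1 of 15 macrophage markers passed, and it was lower, while all 15 estimates were below 0. Of 9 bile duct markers 4 were lower (Krt19, which is also on the mesothelial list, Krt7, Ehf and Ezr) and 1 higher (Sox9), with sums of 47.3 to 63.1 CPM in BH-HF-WT and 68.6 to 148 CPM in BH-WT livers. Of 12 integrins 3 were lower, among them Itga6, a laminin receptor subunit (−1.71 ± 0.42, adjusted p = 0.0263), and all 12 estimates were below 0. Of 16 endothelial markers 0 passed and all 16 estimates were below 0, with sums of 158 to 215 CPM in BH-HF-WT and 187 to 383 CPM in BH-WT livers. Of 21 TGF-beta and PDGF pathway genes 1 was lower (Tgfbr3), and of 12 hepatocyte markers 2 were higher (Apoa1 and Cps1). Of 5 tested lymphocyte markers 1 was higher (Cd4), while 4 estimates were below 0 and the median log2 fold change was −1.53. The 10 listed lymphocyte markers summed to 8.98 to 16.3 CPM in BH-HF-WT and 22.8 to 41.7 CPM in BH-WT livers. Among the mesothelial markers Upk1b, Lrrn4 and Msln were each at 0 in 1 of the 18 libraries, and the others were counted in every library. The part of these cells in the result was not tested.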

How the data were processed

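The values are raw counts of reads per gene, which the authors deposited as whole numbers without normalization in 1 table of 18 libraries. The submitters' processing notes name STAR 2.6 and mm10. The sources used here name no read counter, annotation or strand setting, so counts of overlapping genes are uncertain. Per the labels, RNA was extracted from frozen liver with Trizol.

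Libraries were grouped by their labels. Of 52636 gene IDs, 22756 had no count in any library, and edgeR's filterByExpr with a minimum count of 10 kept 13958. Counts were scaled by TMM factors and fitted with edgeR 4.0.16 in R 4.3.3, 1 mean per group over all 18 libraries (12 residual degrees of freedom), and contrasts were tested with the robust, two-sided quasi-likelihood F-test and Benjamini-Hochberg adjustment over 13958 genes at 0.05. The SE is the log2 fold change divided by the root of its F. There were 8 comparisons. The script was tested on simulated counts. Exon lengths and gene positions, counted from 1, are from GENCODE M21, and promoters from RefSeq.

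The genes described, the further lists and the tests were chosen with earlier results of these data known. All members that passed in a KO comparison are given by library, other members by role, and from each further list at most 2 rises and 2 falls. The alternatives were library size alone, upper-quartile factors, DESeq2 size factors, no filter and a filter of 1 CPM in 3 libraries, the compared groups alone, DESeq2 1.42.0, the replicate number as a block, and leaving out each library. The labels call the samples biological replicates.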

Additional observations from a re-analysis of the deposited data

How the results depend on the processing

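No log2 fold change of a gene that passed changed sign under any alternative run. For H-KO against H-WT, 5 genes passed, 7 with the compared groups alone, 7 with library size alone, and 2 to 5 when single libraries were left out. For BH-KO against BH-WT, 5 passed, 0 to 13 when single libraries were left out, 3 with library size alone and 0 with the compared groups fitted alone, where 1096 of all genes passed instead of 3990. For BH-HF-WT against BH-WT, 11 passed, 0 to 10 when single libraries were left out, 6 with no filter, 5 with the compared groups alone, and 15 with DESeq2. For BH-KO against H-KO, 0 passed, and 0 to 3 when single libraries were left out. For the KO effect in the BH minus that in the H line, 0 passed, 1 (Reln) with the compared groups alone, and 0 to 3 when single libraries were left out, the 3 (Col3a1, Timp1 and Vim) without BH-KO replicate 1. For the KO effect in the HF setting minus that at 10 weeks, 0 passed, and 0 to 1 when single libraries were left out (Timp2, without BH-KO replicate 1). BH-HF-KO against BH-HF-WT and BH-WT against H-WT stayed at 0 in all 14 alternatives each. The causes were not tested.

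Replicate numbers were not treated as pairs: deviations of same-numbered KO and WT libraries correlated at −0.17 to 0.04. With the replicate number as a block, 5 genes passed in H-KO, 5 in BH-KO and 10 in BH-HF-WT livers, where the call of Timp1 was lost, and 0 in the other 5 comparisons.

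Over all genes, library size alone gave 220 higher and 266 lower in the difference of KO effects between lines, against 525 and 321 with TMM, and 427 and 395 with upper-quartile factors. It gave 320 higher and 759 lower, against 481 and 370, in the difference between settings, where upper-quartile factors gave 430 and 549. For BH-KO against H-KO it gave 587 higher and 1341 lower, against 1412 and 880, and upper-quartile factors gave 1076 and 1127. Tagln had too few counts to be tested.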
